A study of Mus musculus with 2 samples.

Results

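The genes described here encode the enzymes that add methyl groups to lysines of histone H3, the enzymes that remove them, and the core subunits of the enzyme complexes. They were taken from a list of 39 genes, chosen by name with no rule on their values, and were grouped by the lysine they act on, written as H3K4, H3K9, H3K27, H3K36 and H3K79. Each gene was found in the deposited transcript table through its current or an older symbol, and the values of its protein-coding RefSeq transcripts were added up. All 39 of 39 genes were found, among 20370 protein-coding genes in the table. The unit is FPKM, fragments per kilobase of transcript scaled to the size of the library, which allows levels of different genes to be set side by side.

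RNA-seq was made from 1 library of Ebf1 -/- pre-pro-B cells and 1 library of Rag2 -/- pro-B cells, both of C57BL/6 background and both grown as cultured cells on OP-9 stromal cells. The pre-pro-B cells came from fetal liver of a female and were kept in Il-7 at 5 ng/mL, Scf at 10 ng/mL and Flt3l at 10 ng/mL. The pro-B cells came from bone marrow of an adult male and were kept in Il-7 at 5 ng/mL alone. Ebf1 is a transcription factor required for commitment to the B lineage, and Rag2 is part of the recombinase that cuts immunoglobulin gene segments, so each mutant holds cells at its stage. Cell type, genotype, sex, age, tissue of origin and cytokines differ together between the libraries and cannot be told apart. With 1 library per cell type there was no replicate check, and every difference below is a difference between these libraries.

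Methylation of H3K4 marks active promoters and enhancers. Methylation of H3K9 and of H3K27 is found at silenced chromatin, the latter placed by Polycomb repressive complex 2 (PRC2). Methylation of H3K36 and H3K79 lies along transcribed genes. Methyltransferases are often called writers and demethylases erasers, and in developing B cells *Ezh2*, the main catalytic subunit of PRC2, is known for its role in immunoglobulin gene rearrangement.

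The labels gave about 90 M single-end reads of 97 bp per sample. The library of Ebf1 -/- cells had an *Ebf1* FPKM of 64.0 and the library of Rag2 -/- cells had a *Rag2* FPKM of 22.9, each below the value of the other library (273 and 34.5) but above 0. As sums over whole transcripts, they do not check which stretch of a gene was deleted. Of 10 genes listed as B lineage markers, 8 passed 2-fold upward in pro-B cells, beside 12.2% of all genes, and 1, *Ptprc*, was far lower. The remaining gene, *Il7r*, had 349 FPKM in pre-pro-B and 424 in pro-B cells. *Ptprc* had 269 FPKM in pre-pro-B and 0.917 in pro-B cells, and the cause was not tested. The progenitor markers *Flt3*, *Kit* and *Cd34* were all higher in pre-pro-B cells. Summed FPKM over the stromal markers was 20.03 in pre-pro-B and 16.1 in pro-B cells, of which *Pdgfrb* made 15.9 in pre-pro-B cells, and *Dcn* was listed at 0 in both. Without *Pdgfrb* the stromal sum was 4.11 in pre-pro-B and 15.7 in pro-B cells. Of the 5 stromal markers that passed the limit on low values, 4 had a higher level in pro-B cells, beside 43.1% of all genes. Past 2-fold upward were 3 of them, beside 12.2% of all genes. The myeloid markers summed to 64.1 and 6.66 with *Elane* listed at 0 in both, the T lineage markers to 77.5 and 0.255, and the erythroid markers to 0.449 and 0.232 with *Hba-a1* listed at 0 in both. In the T lineage sum of pre-pro-B cells *Tcf7* made 38.9 and *Cd3g* 36.8, while *Cd4* had 1.15, *Cd8a* 0.322 and *Cd3e* 0.239. The part of these other cell types in the values below was not tested, and in such bulk libraries fewer cells of a type and less RNA per cell cannot be told apart.

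All 39 genes had an FPKM above 0 in both libraries, and all had a mean FPKM of at least 1, the limit for a gene to enter the comparison, which 10176 genes passed. In pre-pro-B cells 31 of them had 10 FPKM or more, and in pro-B cells 29. The median of the 39 genes was 24.6 in pre-pro-B and 22.7 in pro-B cells, against 13.9 and 12.5 over all genes that passed, which put it at percentiles 68.4 and 67.1. The levels ran from 1.46 (*Setd1b*) to 83.3 (*Kdm5b*) in pre-pro-B and from 0.786 (*Kdm6b*) to 277 (*Ezh2*) in pro-B cells. *Ezh2* in pro-B cells was the one value of these genes above 100, and 132 genes in that library were higher.

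**Figure D1:**
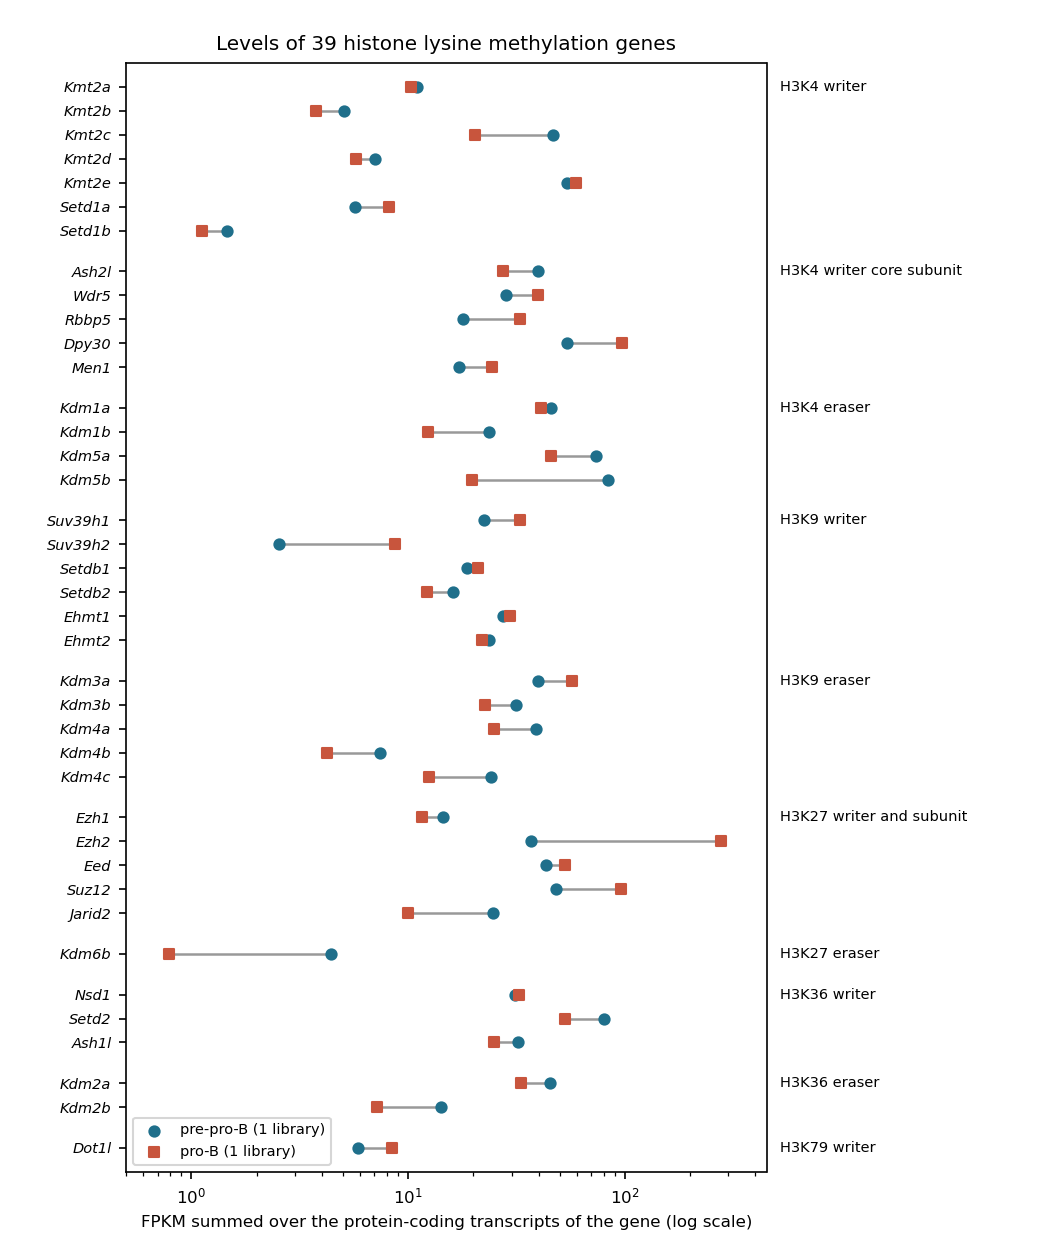
Summed FPKM (log axis) of each of the 39 genes in the pre-pro-B library (circles) and the pro-B library (squares), ordered by target lysine and role, with a line joining the 2 values of a gene. There are no error bars because each cell type has 1 library. The long lines belong to *Ezh2* (37.0 and 277), *Kdm5b* (83.3 and 19.8), *Kdm6b* (4.40 and 0.786) and *Suv39h2* (2.55 and 8.71).

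Differences were expressed as log2 ratios, the pro-B value plus 1 over the pre-pro-B value plus 1, and a gene was counted as higher or lower where this ratio passed 2-fold. By this count 2 of the 39 genes (5.13%) were higher in pro-B cells, *Ezh2* and *Suv39h2*, against 12.2% of all genes that passed. A further 4 (10.3%) were lower in pro-B cells, *Kdm5b*, *Kdm6b*, *Jarid2* and *Kmt2c*, against 17.9% of all genes. The other 33 lay within 2-fold, 24 of them within 1.5-fold. Both shares are thus below the shares of all genes. The median log2 ratio was -0.21, beside -0.13 for all genes, and 23 of the 39 genes (59.0%) were below 0, beside 56.9% of all genes.

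Most demethylases had lower values in pro-B cells, while methyltransferases and subunits lay on both sides of 0. Of the 12 demethylases, 11 had a lower value in pro-B cells, with a median log2 ratio of -0.69, and *Kdm3a* was the exception. Of the 27 methyltransferases and subunits, 12 had a lower value in pro-B cells and the median was 0.11. Within these, the 19 methyltransferases, with *Kmt2e* counted among them by sequence, had a median of -0.09 with 10 below 0. The 8 non-catalytic subunits had a median of 0.48 with 2 below 0. Summed over the 12 demethylases the FPKM was 432 in pre-pro-B and 281 in pro-B cells, 1.54-fold lower in pro-B cells. The share of demethylases below 0, 91.7%, stands beside 56.9% of all genes, and the share lower past 2-fold, 2 of 12 or 16.7%, beside 17.9%.

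**Figure D2:**
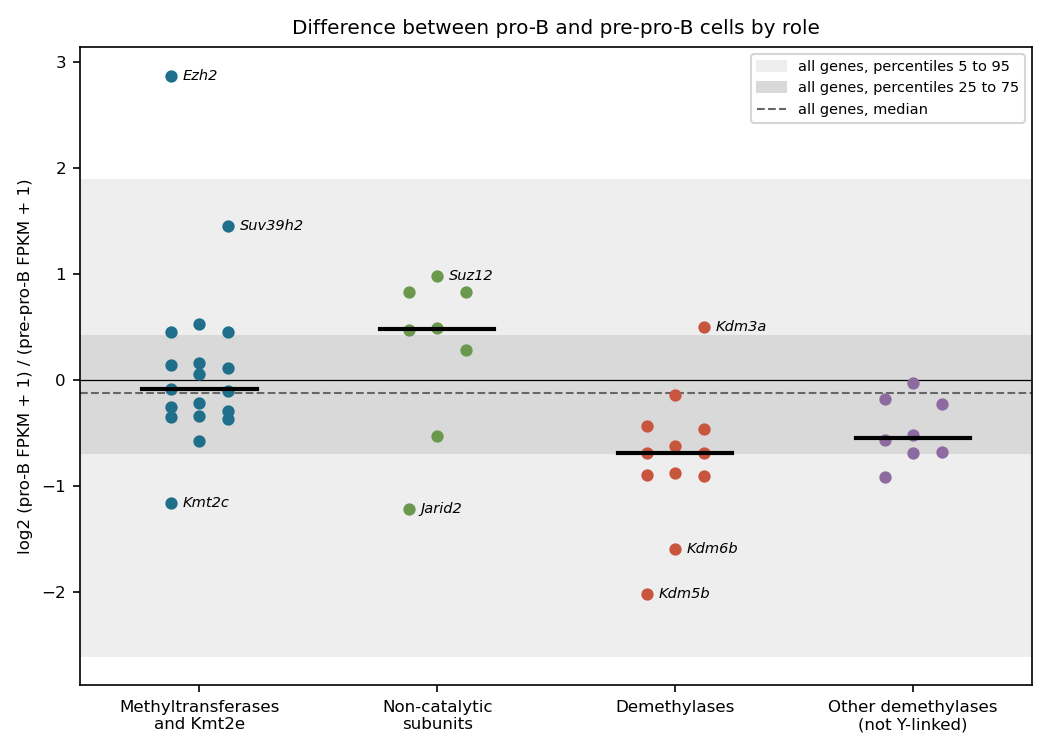
Log2 ratio of the libraries (pro-B over pre-pro-B, with 1 added to each FPKM) for the 19 methyltransferases with *Kmt2e* among them, the 8 subunits, the 12 demethylases, and 8 further demethylases that are not Y-linked; each point is a gene, bars are medians, and shading gives percentiles 5 to 95 (-2.61 to 1.89) and 25 to 75 (-0.69 to 0.41) of all genes. Of the 12 demethylases all but *Kdm3a* lie below 0, and 10 of 12 do where each gene is read from its most abundant transcript. *Ezh2* at 2.87 is the one plotted gene outside the wider band.

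By lysine, the 16 H3K4 genes had a median log2 ratio of -0.18, the 11 H3K9 genes -0.11 and the 5 H3K36 genes -0.43. The 6 H3K27 genes had a median near 0, with the widest range, from -1.60 (*Kdm6b*) to 2.87 (*Ezh2*). The summed FPKM of the H3K27 genes was 172 in pre-pro-B and 448 in pro-B cells, of which *Ezh2* made 37.0 and 277. The H3K9 sum differed little between the libraries, 253 and 247. *Dot1l*, the methyltransferase of H3K79, had 5.87 FPKM in pre-pro-B and 8.39 in pro-B cells (0.45).

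The PRC2 genes held the largest difference. *Ezh2* (mm9, chromosome 6, 47480273 to 47545340) had 37.0 FPKM in pre-pro-B and 277 in pro-B cells, a 7.49-fold higher level and a log2 ratio of 2.87. Of the 10176 genes, 200 had a higher log2 ratio. Its main transcript, NM_007971, had 35.9 FPKM in pre-pro-B cells, with limits of a 95% confidence interval from Cuffdiff of 3.21 and 68.7. In pro-B cells it had an FPKM of 255, with limits of 11.6 and 538, so the intervals overlap. The second transcript, NM_001146689, had 1.11 FPKM (limits 0 and 6.57) in pre-pro-B and 22.3 (limits 0 and 106) in pro-B cells, also overlapping.

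*Suz12*, the PRC2 subunit that holds the complex together, had 47.9 FPKM in pre-pro-B and 95.9 in pro-B cells. Its ratio without a pseudocount was 2.00, and with 1 added to each value the log2 ratio was 0.99, just short of 2-fold. *Eed*, the subunit that binds methylated H3K27, had 43.3 and 52.9 (log2 ratio 0.28). *Ezh1*, the other catalytic subunit, had 14.5 and 11.6 (-0.29). The levels within the core of the complex thus stood in other proportions. In pre-pro-B cells *Ezh2* stood at 0.772 of the level of *Suz12* and 0.854 of that of *Eed*, and in pro-B cells at 2.89 and 5.23 times their levels.

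*Jarid2*, a PRC2 partner that helps bring the complex to its targets, differed the other way. Its FPKM was 24.6 in pre-pro-B and 10.0 in pro-B cells, a 2.46-fold lower level in pro-B cells (log2 ratio -1.22). The main transcript, NM_001205043 (mm9, chromosome 13, gene at 44824843 to 45017012), had limits of 2.05 and 45.9 in pre-pro-B and of 0.617 and 18.7 in pro-B cells, which overlap. *Jarid2* stood at 0.513 of the level of *Suz12* in pre-pro-B and at 0.104 in pro-B cells.

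*Kdm6b*, the H3K27 demethylase of the list (mm9, chromosome 11, 69212010 to 69227177), had 4.40 FPKM in pre-pro-B and 0.786 in pro-B cells, a 5.60-fold lower level. The interval was 0.208 to 11.1 in the former and 0 to 2.56 in the latter. It was below 1 FPKM in pro-B cells and entered the comparison through its level in pre-pro-B cells. Its level in pro-B cells rests on the fewest reads of any of the 39 genes, a nominal 469.9 fragments at 90 M reads, with a Poisson 95% interval of 428 to 514 for counting error alone. For *Ezh2* the same arithmetic gives 8831 fragments in pre-pro-B and 66114 in pro-B cells.

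Genes of proliferating cells differed in the same direction as *Ezh2*. Of 14 proliferation markers, 13 passed 2-fold upward in pro-B cells, beside 12.2% of all genes. The 14 markers had a median log2 ratio of 1.72 and a sum of 718 FPKM in pre-pro-B and 2489 FPKM in pro-B cells. *Mki67* had 81.1 and 349, and *Top2a* 138 and 622. The part of proliferation in the values of *Ezh2*, *Suz12* and *Suv39h2* was not tested.

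Promoter windows were searched for words bound by E2F factors, which drive genes of the replication phase. The 2 windows that held one, of *Ezh2* and *Suz12*, are shown beside those of *Suv39h2* and *Kdm5b*, and this set was chosen after the matches and the levels were seen. The windows are from RefSeq on GRCm38.p6, a later build than the mm9 of the values, and run from 250 bases before to 30 bases after the start of transcription, written 5′ to 3′ on the strand of the gene. Capitals mark a match to the E2F words TTTCCCGC or TTTGGCGC on either strand, and no other searched word overlaps them.
Ezh2, chr6:47595001-47595280, minus strand: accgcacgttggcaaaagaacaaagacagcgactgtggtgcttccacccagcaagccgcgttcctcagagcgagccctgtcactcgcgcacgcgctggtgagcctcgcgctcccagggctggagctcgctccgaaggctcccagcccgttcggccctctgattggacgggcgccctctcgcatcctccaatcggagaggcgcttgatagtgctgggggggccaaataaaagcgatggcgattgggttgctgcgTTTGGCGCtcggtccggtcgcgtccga
Suz12, chr11:79992856-79993135, plus strand: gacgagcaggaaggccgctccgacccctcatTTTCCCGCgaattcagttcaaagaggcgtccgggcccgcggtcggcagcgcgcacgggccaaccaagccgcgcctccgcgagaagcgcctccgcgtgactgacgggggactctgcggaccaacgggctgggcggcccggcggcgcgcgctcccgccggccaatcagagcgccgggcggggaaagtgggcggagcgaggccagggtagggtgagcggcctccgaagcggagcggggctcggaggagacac
Suv39h2, chr2:3474957-3475236, minus strand: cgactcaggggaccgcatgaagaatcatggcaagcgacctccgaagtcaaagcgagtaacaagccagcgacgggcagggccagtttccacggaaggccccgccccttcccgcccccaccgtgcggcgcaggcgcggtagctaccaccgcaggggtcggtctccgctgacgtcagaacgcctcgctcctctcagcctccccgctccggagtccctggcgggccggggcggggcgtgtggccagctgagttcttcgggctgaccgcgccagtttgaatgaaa
Kdm5b, chr1:134559928-134560207, plus strand: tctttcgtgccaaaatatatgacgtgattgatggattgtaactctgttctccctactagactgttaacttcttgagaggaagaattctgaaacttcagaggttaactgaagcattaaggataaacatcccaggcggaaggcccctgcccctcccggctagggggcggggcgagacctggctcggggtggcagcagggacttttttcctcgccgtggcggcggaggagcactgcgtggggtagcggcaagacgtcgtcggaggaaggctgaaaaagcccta

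The *Ezh2* window held TTTGGCGC with its first base 4 bases after the start, and the *Suz12* window held TTTCCCGC with its first base 219 bases before the start. Of the genes past 2-fold, *Suv39h2*, *Kdm5b*, *Jarid2* and *Kmt2c* had windows that held neither word. *Kdm6b*, also past 2-fold, had no window and was not searched. A window was found for 28 of the 39 genes, 42 windows in all, some of them overlapping windows of the same gene. Of the 42, 2 (4.76%) held an E2F word, beside 1.46% of all 32851 windows. Both words contain the bases CG, and all windows had a median of 6 CG. The windows of *Ezh2*, *Suz12*, *Suv39h2* and *Kdm5b* held 30, 41, 30 and 16. The part of base composition in these shares was not tested. The E-box CAGGTG, searched on both strands as well, was in 8 of the 42 (19.0%) beside 19.1% of all windows. A match is a description of these letters and not a binding site.

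Among the H3K9 methyltransferases, *Suv39h2* had 2.55 FPKM in pre-pro-B and 8.71 in pro-B cells, a 3.42-fold higher level (log2 ratio 1.45). It is one of a pair of enzymes that place methylation at heterochromatin around centromeres, and lies on chromosome 2 of mm9 at 3373087 to 3392303. Its transcript NM_022724 had limits of 0 and 10.8 in pre-pro-B and of 0 and 28.4 in pro-B cells, and both intervals reach 0. Its X-linked partner *Suv39h1* had 22.4 and 32.8 (0.53), so *Suv39h1* remained the more abundant of the pair in both libraries. *Setdb1*, which silences retroviral elements, had 18.6 and 21.0 (0.17), and its relative *Setdb2* had 16.1 and 12.3 (-0.37). *Ehmt1* and *Ehmt2*, which work together on H3K9 in euchromatin, had 27.4 and 29.7 (0.11) and 23.6 and 21.9 (-0.11). These 4 enzymes lay within 1.5-fold of equal.

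The H3K9 demethylases were lower in pro-B cells but for *Kdm3a*, beside 56.9% of all genes with a lower value. *Kdm3a* had 39.8 FPKM in pre-pro-B and 56.7 in pro-B cells (log2 ratio 0.50). Its relative *Kdm3b* had 31.6 and 22.7 (-0.46). Of the Kdm4 enzymes, which also act on H3K36, *Kdm4a* had 38.8 and 24.9 (-0.62), *Kdm4b* 7.41 and 4.22 (-0.69) and *Kdm4c* 24.2 and 12.4 (-0.90). None of the 5 passed 2-fold, beside 12.2% of all genes higher and 17.9% lower. Summed over the 5 the FPKM was 142 in pre-pro-B and 121 in pro-B cells.

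All 4 H3K4 demethylases were lower in pro-B cells, beside 56.9% of all genes. Their sum was 226 in pre-pro-B and 119 in pro-B cells. *Kdm5b* (mm9, chromosome 1, 136456748 to 136529454), a JmjC enzyme that removes H3K4 trimethylation, had 83.3 FPKM in pre-pro-B cells, the highest of the 39 genes there, and 19.8 in pro-B cells. The 4.21-fold lower level is a log2 ratio of -2.02, below which 776 of the 10176 genes lay. Its transcript NM_152895 had limits of 5.95 and 185 in pre-pro-B and of 0.665 and 42.3 in pro-B cells, which overlap. *Kdm5a*, its close relative, had 74.0 and 45.4 (-0.69). Of the flavin-dependent enzymes, *Kdm1a* had 45.4 and 41.1 (-0.14) and *Kdm1b* 23.7 and 12.4 (-0.88). The log2 ratio of *Kdm1a* was close to the median of all genes (-0.13).

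Of the 7 methyltransferases of the H3K4 group, *Kmt2c* alone passed 2-fold, beside 12.2% of all genes higher and 17.9% lower. It acts at enhancers, and had 46.8 FPKM in pre-pro-B and 20.4 in pro-B cells, a 2.29-fold lower level (log2 ratio -1.16; mm9, chromosome 5, 24777612 to 25004601). Its limits were 1.88 and 128 in pre-pro-B and 2.16 and 53.1 in pro-B cells, with overlap. Its partner at enhancers, *Kmt2d*, had 7.07 and 5.77 (-0.25). *Kmt2a*, the gene rearranged in mixed-lineage leukemia, had 11.0 and 10.3 (-0.09) and its relative *Kmt2b* 5.04 and 3.78 (-0.34). *Setd1a*, which places much of the H3K4 trimethylation of promoters, had 5.70 and 8.17 (0.45), and *Setd1b* 1.46 and 1.12 (-0.21). *Kmt2e*, grouped with these by sequence although it is not known to be an active methyltransferase, had 53.9 and 59.7 (0.15). Apart from *Kmt2c*, these genes lay within 1.5-fold of equal.

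Of the 5 non-catalytic subunits of the H3K4 group, 4 were higher in pro-B cells, beside 43.1% of all genes. None passed 2-fold, beside 12.2% of all genes higher and 17.9% lower. *Rbbp5* had 18.0 FPKM in pre-pro-B and 32.8 in pro-B cells (log2 ratio 0.83), *Dpy30* 54.2 and 97.3 (0.83), *Wdr5* 28.4 and 39.9 (0.47) and *Men1* 17.1 and 24.5 (0.49). *Ash2l* had 39.7 and 27.3 (-0.53). Menin, the product of *Men1*, tethers the Kmt2a and Kmt2b enzymes to chromatin, and the other proteins form the scaffold that activates the catalytic subunit.

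Of the H3K36 genes, *Nsd1* had 31.2 FPKM in pre-pro-B and 32.6 in pro-B cells (0.06). *Setd2*, which trimethylates H3K36 along transcribed genes, had 79.8 and 53.2 (-0.58), and *Ash1l* 32.2 and 25.0 (-0.35). The demethylases *Kdm2a* and *Kdm2b*, which also bind unmethylated CpG islands, had 45.1 and 33.2 (-0.43) and 14.3 and 7.22 (-0.89). None passed 2-fold, beside 12.2% of all genes higher and 17.9% lower, and *Kdm2b* was 1.97-fold lower in pro-B cells.

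Within families of related genes the balance shifted in several places. *Ezh2* made 71.9% of the summed FPKM of *Ezh1* and *Ezh2* in pre-pro-B and 96.0% in pro-B cells, and its ratio to *Ezh1* was 2.56 and 23.8. *Kdm5b* made 53.0% of the *Kdm5a* and *Kdm5b* sum in pre-pro-B and 30.3% in pro-B cells, so the more abundant of the pair was *Kdm5b* in the former and *Kdm5a* in the latter. In no other family did the most abundant gene differ between the libraries. *Suv39h2* made 10.2% of its pair in pre-pro-B and 21.0% in pro-B cells. *Kdm3a* made 55.8% and 71.4% of the Kdm3 pair, *Kdm1a* 65.8% and 76.8% of the Kdm1 pair, and *Setdb1* 53.7% and 63.2% of the Setdb pair. *Kmt2c* made 86.9% and 78.0% of its pair with *Kmt2d*. The other families moved less: *Setd1a* made 79.6% and 87.9% of its pair, *Kdm2a* 76.0% and 82.1%, *Kmt2a* 68.7% and 73.2%, and *Ehmt1* 53.7% and 57.5%, while *Kdm4b* stood at 10.5% and 10.2% of the Kdm4 sum.

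**Figure D3:**
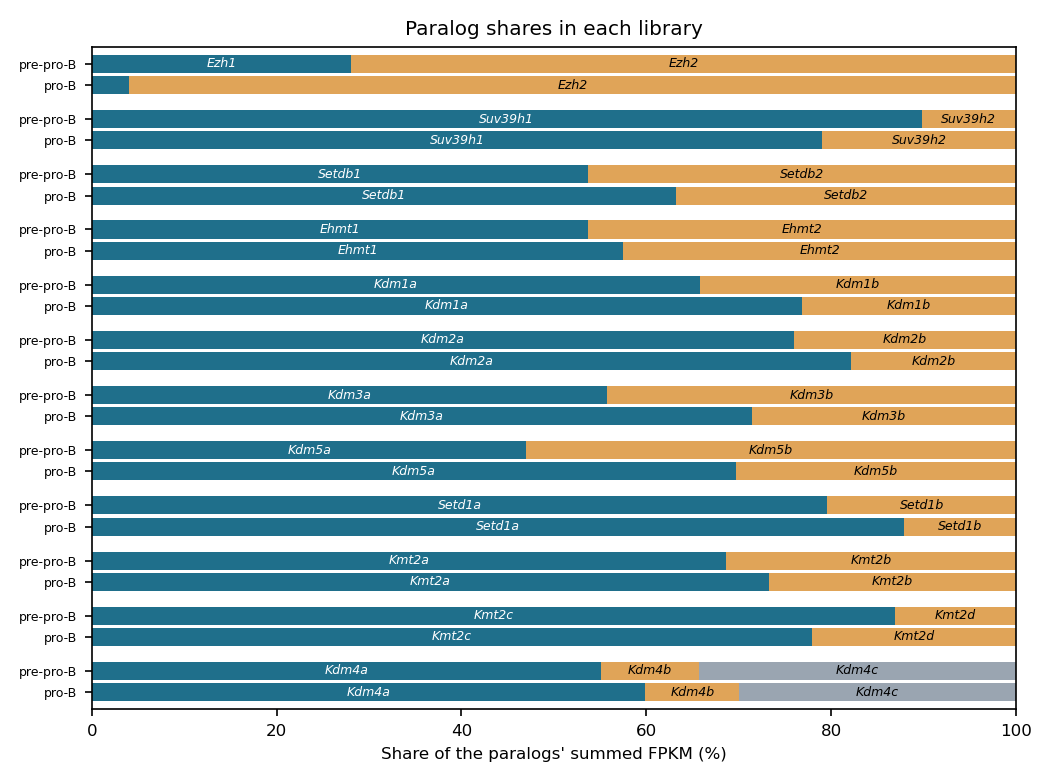
Share of each gene, in percent, in the summed FPKM of its family in the pre-pro-B library (upper bar) and the pro-B library (lower bar) for 12 families. *Ezh2* goes from 71.9% to 96.0%, and the larger part of the Kdm5 pair is *Kdm5b* in pre-pro-B and *Kdm5a* in pro-B cells. The Cuffdiff limits of *Kdm5a* and *Kdm5b* overlap within each library.

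The 39 genes had 60 RefSeq transcripts. A single transcript was listed for 26 genes and several for 13. Of the 54 transcripts with a mean FPKM of at least 1, 1 had intervals that did not overlap between the libraries, beside 4.50% of all such transcripts in the table. This was NM_001168488 of *Men1*, with 0.00337 FPKM in pre-pro-B cells, where both limits were given as 0, and 19.4 (limits 0.666 and 40.4) in pro-B cells. The lack of overlap thus rests on a pre-pro-B interval that leaves out its own value. Another *Men1* transcript, NM_001168489, had 15.9 (0.683 and 32.3) in pre-pro-B and 1.09 (0 and 6.08) in pro-B cells. The share of the first in the summed FPKM of the gene was 0.020% in pre-pro-B and 79.3% in pro-B cells, and that of the second 92.8% and 4.44%, while the sum itself differed by 1.43-fold.

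*Kdm4c* was the other gene with a different leading transcript in each library. NM_144787 made 61.1% of it in pre-pro-B and 22.0% in pro-B cells, and NM_001172095 made 38.9% and 78.0%. The FPKM of NM_001172095 was 9.41 and 9.70, so the lower sum in pro-B cells lay with NM_144787, at 14.8 and 2.74. In *Kdm2b* the transcript NM_013910 made 47.9% and 14.7% of the sum, with an FPKM of 6.82 and 1.06, and NM_001003953 had 7.43 and 6.15. In *Ehmt1* NM_001012518 made 22.5% in pre-pro-B and was listed at 0 in pro-B cells, NM_001109686 made 24.2% and 0.157%, and NM_001109687 made 2.89% and 27.4%. *Ash2l* had NM_001080793 at 0.00623% and 21.1%. The 2 transcripts of *Ehmt2* kept their shares, at 34.6% and 34.5% for NM_145830. Transcripts of a gene share most of their reads, so each split is an estimate of Cuffdiff and carries more error than the sum over the gene.

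**Figure D4:**
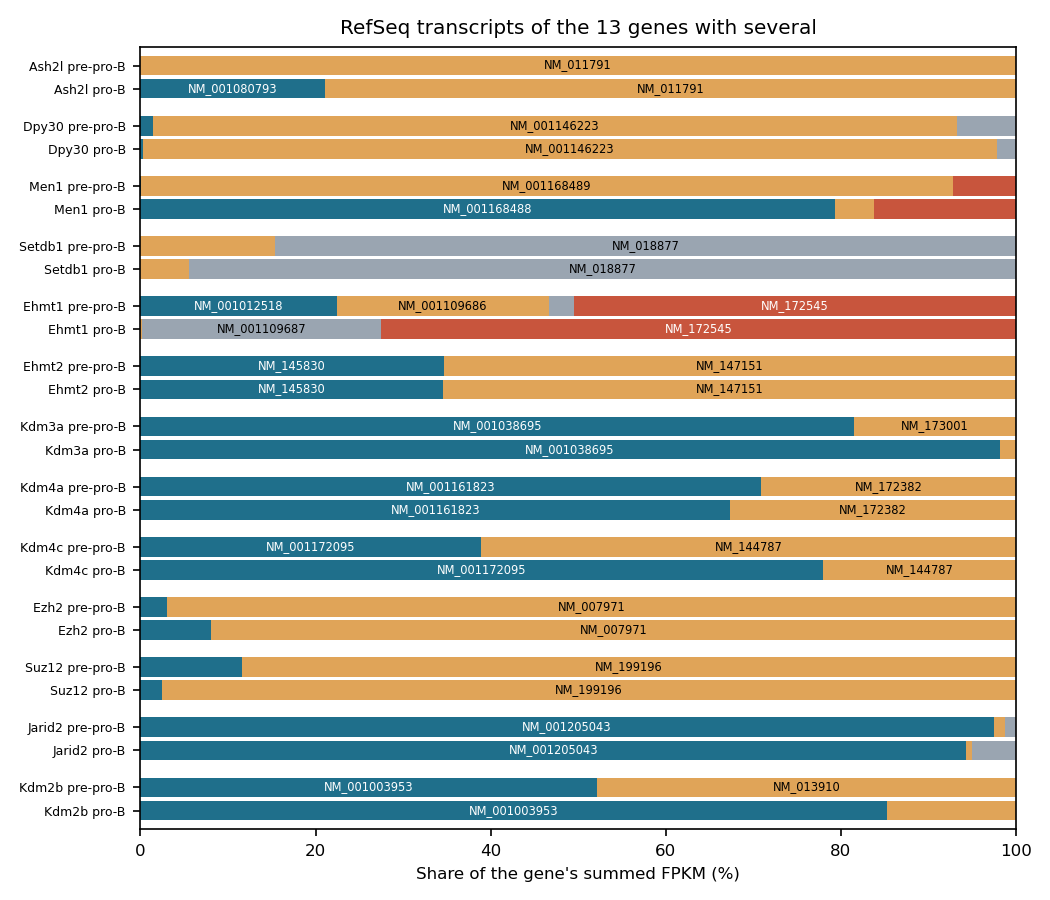
Share of each RefSeq transcript, in percent, in the summed FPKM of its gene, for the 13 genes with several transcripts, with the pre-pro-B library above and the pro-B library below. The leading transcript differs between the libraries in *Men1* (92.8% NM_001168489 against 79.3% NM_001168488) and *Kdm4c* (61.1% NM_144787 against 78.0% NM_001172095), and the shares of *Ehmt2* differ by 0.0990 percentage points.

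Long transcripts were common among these genes. The longest transcript had at least 5000 bases in 19 of the 39 genes (48.7%), beside 16.4% of all genes that passed. The median log2 ratio was -0.35 for these 19 and 0.22 for the 20 shorter ones, beside -0.20 and -0.11 for all genes in the same classes. Demethylases were lower in pro-B cells in both classes, in 6 of 6 long and 5 of 6 short genes. Of the methyltransferases and subunits, 8 of 13 long (61.5%) and 4 of 14 short genes (28.6%) were lower. Over all genes that passed, 61.9% of the long and 55.9% of the short ones were below 0. Across the 39 genes, which share both libraries, Spearman's rho between transcript length and log2 ratio was -0.43, and across all genes that passed it was -0.08. Within the 19 long genes rho was -0.02 and within the 20 shorter ones -0.29. Over all genes in the same classes it was 0.01 and -0.07. The part of transcript length in the values was not tested.

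A wider list of 65 further genes, named for lysine and arginine methylation of histones and for the partners of the enzymes above, was read in the same way, and 59 passed the limit on low values. Of these, 7 (11.9%) were higher in pro-B cells, beside 12.2% of all genes, and 3 (5.08%) were lower, beside 17.9%. The median log2 ratio was -0.13, as for all genes. The other lysine demethylases that passed had lower values in pro-B cells, apart from the Y-linked *Kdm5d* and *Uty*, which passed 2-fold upward. Without the Y-linked genes, 8 passed and all 8 were below 0, or 7 of 8 after scaling by the median ratio, with a median of -0.54, beside 56.9% of all genes below 0. None of the 8 passed 2-fold, beside 17.9% of all genes, and they ranged from -0.92 (*Kdm6a*) to -0.03 (*Phf2*). Of these, *Kdm6a*, the X-linked H3K27 demethylase, had 56.4 FPKM in pre-pro-B and 29.4 in pro-B cells, *Kdm5c*, also X-linked, 40.8 and 25.0, and *Jmjd1c* 78.4 and 48.4. The differences of *Phf8*, X-linked as well (16.3 and 14.2), *Phf2* (15.4 and 15.0) and *Kdm8* (2.96 and 2.39) were smaller. The Y-linked *Kdm5d* had 0.0274 and 19.4 and *Uty* 0.0663 and 55.3. The pro-B donor was male and the pre-pro-B donor female. The part of sex in the values of the X-linked and Y-linked genes cannot be told apart from that of cell type.

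Of the PRC2 accessory subunits, *Phf19*, which binds methylated H3K36 and helps PRC2 reach chromatin, had 0.512 FPKM in pre-pro-B and 12.4 in pro-B cells (log2 ratio 3.15). *Phf19* was below 1 FPKM in pre-pro-B cells and entered the comparison through its level in pro-B cells. Its limits were 0 and 1.71 in pre-pro-B and 0.792 and 29.4 in pro-B cells, which overlap. The other 5 of the list lay within 2-fold. Of the H3K4 complex accessory subunits, 7 of 8 were above 0 with a median of 0.65, beside 43.1% of all genes, and 2 (25%) passed 2-fold upward, beside 12.2% of all genes. These were *Psip1*, which tethers menin complexes to chromatin, with 20.2 and 68.3 (1.71), and *Hcfc2* with 9.16 and 21.3 (1.13). *Nsd2*, an H3K36 methyltransferase related to *Nsd1*, had 27.1 and 72.7 (1.39), and *Prdm9*, known for setting meiotic recombination sites, 1.52 and 4.41 (1.10). Lower in pro-B cells were *Rcor2*, a partner of Kdm1a, with 23.6 and 5.14 (-2.00), *Setmar* with 3.29 and 0.670 (-1.36), and the arginine methyltransferase *Prmt3* with 49.0 and 23.3 (-1.04). *Setmar* was below 1 FPKM in pro-B cells and entered the comparison through its level in pre-pro-B cells. The Cuffdiff intervals overlap between the libraries for each gene named in this paragraph as past 2-fold. The 3 readers of methylated H3K9 on the list, *Cbx1*, *Cbx3* and *Cbx5*, were above 0 with log2 ratios of 0.22 to 0.40, within 1.5-fold of equal.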

How the data were processed

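Total RNA, depleted of ribosomal RNA and of RNAs under 200 nt, was made into strand-specific libraries and sequenced as single-end reads. The authors aligned the reads to mm9 with TopHat (version 1.5 in the submitters' processing notes) and estimated the deposited FPKM of each RefSeq transcript with Cuffdiff 2.1.1, with corrections for multiply mapped reads and for fragment bias, a status and the limits of a 95% confidence interval. FPKM carry no counts, so the fragments given are nominal (FPKM times length in kilobases times 90 M reads). The 90 M is the approximate number of reads sequenced, and the number of mapped reads was not used. Another deposited table repeats the levels in 2 per-sample columns and adds the authors' log2 fold changes, p-values, q-values and calls, none of which were used.

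Of 30485 transcripts, the 26968 rows of protein-coding (NM_) transcripts were kept, with 26580 accessions. A RefSeq table of GRCm38.p6 named 26173 accessions, and 265 were named by a reciprocal overlap of at least 90% with a gene of the mm9 annotation, *Kmt2a* and *Setdb2* among them. FPKM were summed per gene, log2 ratios used a pseudocount of 1, which understates the difference of low genes, and genes with a mean FPKM of at least 1 were compared. No test was made, because each cell type had 1 library, and counts past 2-fold are set beside those of all genes. All 39 genes are named. Further genes are named where they passed 2-fold or illustrate a list, the latter chosen after their values were seen. The genes, lists and alternatives were chosen with earlier results of these data known. The scripts were tested on simulated data and used Python 3.11.15 with pandas 2.3.3, numpy 2.4.6, matplotlib 3.10.9 and scipy 1.17.1.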

Additional observations from a re-analysis of the deposited data

How the results depend on the processing

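The results were recomputed under 10 alternatives. *Ezh2*, *Suv39h2*, *Kdm5b*, *Jarid2* and *Kmt2c* passed 2-fold in the same direction under each of the 8 that keep the 2-fold limit, and so did *Kdm6b* except where a mean FPKM of at least 5 was required, which it does not reach. The 2 higher genes became 4 with the most abundant transcript of each gene, which adds *Suz12* (1.13) and *Men1* (4.35), 5 with a 1.5-fold limit and 1 with a 4-fold limit. The 4 lower genes became 7 when each library was rescaled to TPM, which adds *Kdm1b*, *Kdm4c* and *Kdm2b*, 10 with a 1.5-fold limit and 1 with a 4-fold limit. *Suz12* also passed 2-fold without a pseudocount (1.00) and after scaling by the median ratio (1.07). Of the 65 further genes, the 7 higher became 3 with a 4-fold limit, 6 with a mean FPKM of at least 5 and 9 with a 1.5-fold limit, and the 3 lower became 2 with a mean FPKM of at least 5, 2 with the median ratio, 5 with a pseudocount of 0.1, 5 with no pseudocount, 5 with the most abundant transcript, 6 with TPM, 10 with a 1.5-fold limit and 1 with a 4-fold limit. The cause of these differences was not tested.

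TPM moved the median log2 ratio of all genes from -0.13 to -0.27 and the share of lower genes to 24.1%, and the signs of *Ehmt1* and *Nsd1*, both near 0, became negative. *Kdm4c* turned positive with the most abundant transcript, which leaves 10 of 12 demethylases below 0. Under each of the other alternatives no gene of the 39 changed sign. No replicate could be left out, and no paired analysis was possible because each cell type has 1 library. The Cuffdiff intervals overlap for each of the 6 genes past 2-fold, and the lowest level, of *Kdm6b* in pro-B cells, rests on a nominal 469.9 fragments.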
